A study of Equus caballus with 56 samples.

Results

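Marrow adipocyte genes are described here as 10 genes chosen by their symbols, ADIPOQ, LEP, PLIN1, PLIN4, CIDEC, FABP4, LPL, PPARG, TRARG1 and ADRB3. All 10 were among the 18009 genes listed for equine subchondral bone (SCB), and 8 were among the 16440 listed for articular cartilage (AC), where LEP and CIDEC had no row.

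RNA was sequenced from AC and SCB of 6 foals and 6 adult horses with grossly normal hind limb joints. The foals were 1 day, 3 days, 1 week, 2 weeks, 3 weeks and 4 weeks old and are numbered 1 to 6 in that order. Each gave a fetlock (metatarsophalangeal), hock (tarsocrural) and stifle (femoropatellar) library of each tissue, so 18 foal libraries of each. The adults were 8, 9, 10, 10, 12 and 12 years old and are numbered 1 to 6. Adults 1 and 5 were sampled joint by joint and gave 6 SCB and 4 AC libraries. The other 4 adults gave 1 library per tissue pooled over joints, which the file headers assign to 1 joint each, and the fits used that assignment. The adult values by joint therefore rest in part on mixed joints. The AC stifle values of foals 2 and 3 are each the sum of a superficial and a deep library, counted here as 1 library.

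Adipocytes of the bone marrow store triglyceride in lipid droplets and secrete adipokines such as adiponectin. Red marrow, which makes blood cells, fills the bones of the newborn, and fat cells take up a growing share of the marrow space with age. Whole bone was sequenced, so fewer adipocytes and less RNA per adipocyte cannot be told apart.

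Values are log2 CPM, read counts relative to the library's total, which the authors scaled within each tissue. A gene with no reads is listed at -2.96 in SCB and -3.17 in AC, at mean effective library sizes of 23.3 and 27.0 M reads. Levels of different genes were not compared, since the values are not scaled to gene length. Each tissue showed its own matrix genes. COL1A1, the main collagen of bone, averaged 15.58 ± 0.58 log2 CPM in foal SCB and 13.89 ± 1.12 in adult SCB (SD, n = 6 horses). COL2A1, the main collagen of cartilage, averaged 17.43 ± 1.52 in foal AC and 10.87 ± 1.73 in adult AC.

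In SCB, 7 of the 10 genes were lower in foals than in adults and none was higher. LEP, PLIN1, PLIN4, CIDEC, TRARG1 and ADRB3 differed between the horse means of the ages by 5.14-fold to 17.0-fold, and ADIPOQ by 2.88-fold. FABP4, LPL and PPARG did not pass the test. A gene passed when its difference was larger than a fold change of 1.5 in at least 1 joint (limma TREAT, two-sided, adjusted p under 0.05 over all genes and 9 contrasts). Fitted differences are foal minus adult, averaged over the 3 joints unless a joint is named, and the limma TREAT adjusted p printed beside such an average is the smallest of its 3 joints. Of all SCB genes 19.9% passed, and 10.6% passed with lower values in foals. The median difference over the 10 genes was -2.34 log2 units, and over all SCB genes it was -0.035. Libraries of 1 horse are not independent in that fit, so each gene was also tested on 1 mean per horse by a two-sided exact permutation test over the 12 horses, adjusted over all genes. The same 7 genes passed it, against 45.8% of all genes. LEP and ADRB3 reached 1 CPM in adults alone, so the authors' filter kept them only where they are high. They add nothing to these counts or to the median over the 10 genes. Of the other 8 genes, which reached 1 CPM in every library, 5 were lower in foals. In 5 genes, LEP, PLIN1, PLIN4, TRARG1 and ADRB3, every foal lay below every adult, against 14.0% of all genes, and 3 of these (PLIN1, PLIN4 and TRARG1) did not depend on that filter. With the sequencing batch as a covariate in place of the surrogate variables, ADIPOQ (limma TREAT adjusted p 0.204), CIDEC (0.164) and ADRB3 (0.0556) no longer passed.

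**Figure D1:**
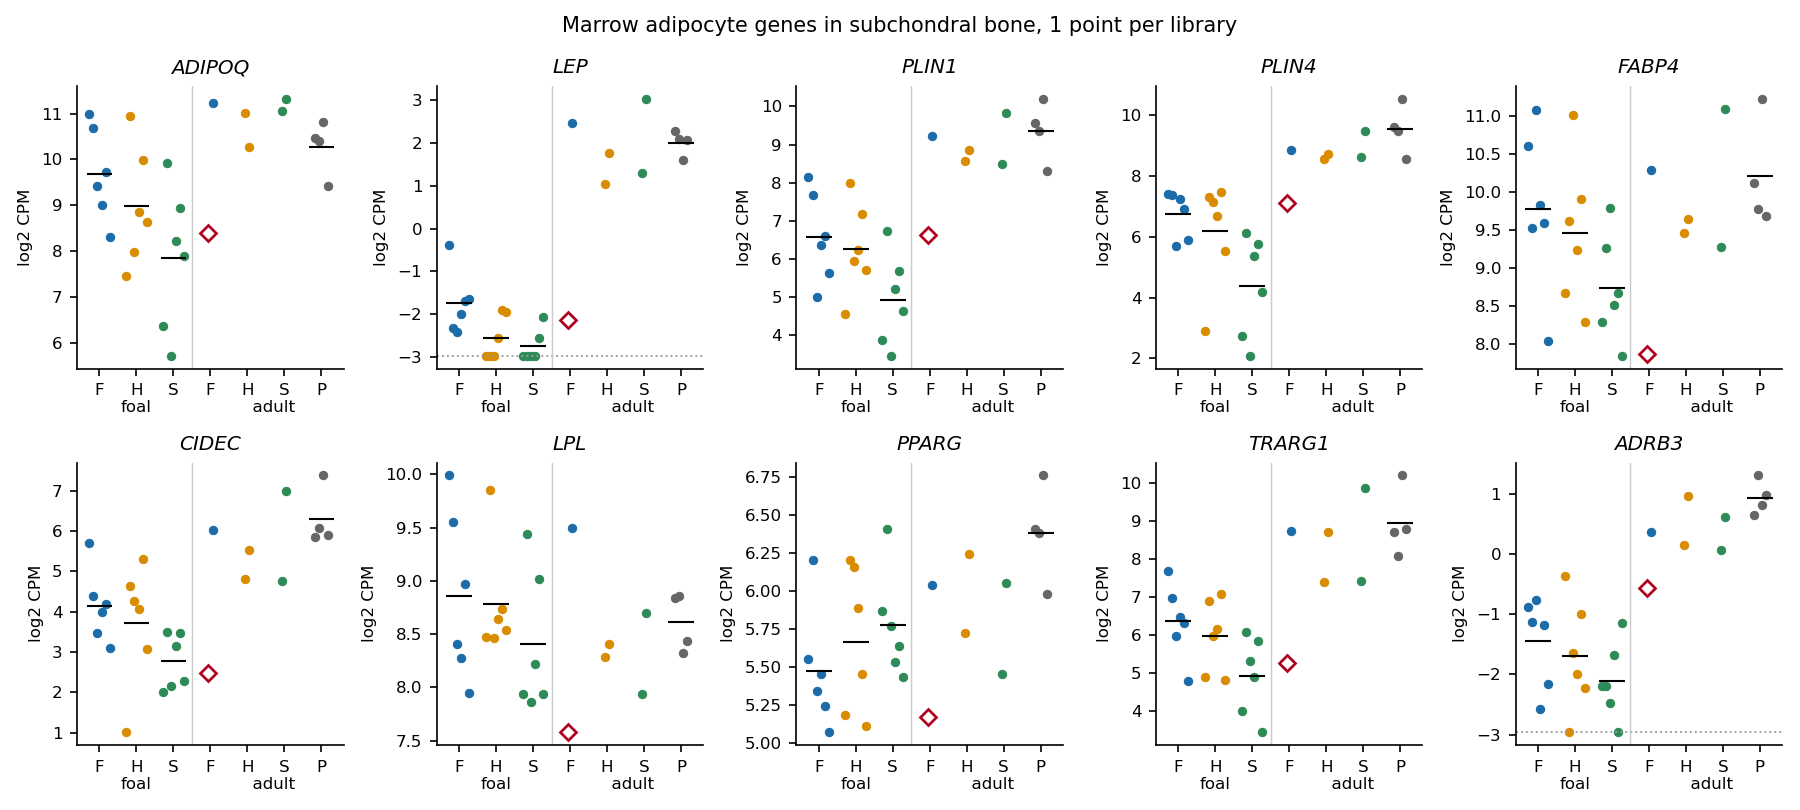
Log2 CPM of the 10 marrow adipocyte genes in each SCB library, by joint (F fetlock, H hock, S stifle, P pooled over joints), with foals on the left and adults on the right of each panel. Lines are means of groups of at least 3 libraries, dotted lines the value of a gene with no reads, and the open diamond the fetlock library of adult 1, which was the lowest adult library for all 10 genes.

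LEP, which encodes leptin, lies on chromosome 4 (83529423-83531543, plus strand, EquCab3.0). Its horse means had a lowest, median and highest value of -2.77, -2.30 and -1.87 in foals and 0.07, 2.07 and 2.41 in adults. Every foal lay below every adult, 7 of the 18 foal libraries were at it, and only adult 1 was below 1.60 among the adults. No foal library reached 1 CPM, so LEP passed the authors' filter on low genes through the adults alone. Its 17.0-fold difference (fitted -4.11, SE 0.38, limma TREAT adjusted p 4.1e-05) therefore depends on the prior count near that floor.

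ADIPOQ, which encodes the adipokine adiponectin, lies on chromosome 19 (27243466-27256261, plus strand). Its horse means were 7.71, 8.50 and 10.52 in foals and 9.43, 10.43 and 10.94 in adults (lowest, median and highest). The ages overlapped. Foal 2, at 3 days, had a mean of 10.52 that exceeded 4 of the 6 adults, and foal 5 (9.55) exceeded adult 6 (9.43). The mean difference was -1.92 (SE 0.39, limma TREAT adjusted p 0.00143), and with 1 value per horse it was -1.53 (exact permutation, adjusted p 0.0435). That value passed in 5 of 16 alternatives, with adjusted p of 0.0209 to 0.165, and was over 0.05 without any 1 of adults 1 to 5 or of foals 1, 3, 4 and 6.

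Among proteins of the lipid droplet, PLIN1 (chromosome 1, 94628653-94639919, plus strand) encodes perilipin 1, which coats the droplet and guards it against lipases. Its foal means were 4.81, 5.74 and 7.48 and its adult means 7.90, 9.34 and 10.20 (lowest, median and highest). Foals were 9.06-fold lower with no overlap (fitted -3.25, SE 0.29, limma TREAT adjusted p 7.37e-07). PLIN4 (chromosome 7, 3171051-3182604, minus strand), another perilipin, had foal means of 4.36, 5.83 and 6.94 and adult means of 8.10, 9.25 and 10.54. It was 10.9-fold lower in foals, again with no overlap (fitted -3.63, SE 0.36, limma TREAT adjusted p 8.63e-07).

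CIDEC (chromosome 16, 8433701-8452856, plus strand), whose product fuses droplets into the single large one of white adipocytes, had foal means of 2.82, 3.51 and 4.33 and adult means of 4.02, 6.0 and 7.38. The groups met only at adult 1, at 4.02, which lay below foals 2 and 5. The difference was -2.39 (SE 0.33, limma TREAT adjusted p 5.34e-05), and exact permutation over horses gave an adjusted p of 0.0189.

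TRARG1 (chromosome 11, 44482108-44497087, minus strand), a regulator of the insulin-responsive glucose transporter GLUT4, had foal means of 4.35, 5.80 and 6.64 and adult means of 6.68, 8.75 and 10.19. The highest foal, foal 2, lay just under the lowest adult, adult 1, and foals were 7.13-fold lower (fitted -2.85, SE 0.21, limma TREAT adjusted p 6.08e-08). ADRB3 (chromosome 27, 7716124-7720732, plus strand), the beta 3 adrenergic receptor that starts lipolysis, was low throughout, at -2.09, -1.78 and -1.14 in foals and -0.12, 0.73 and 1.31 in adults. It reached 1 CPM in 0 of 18 foal and 7 of 10 adult libraries, so like LEP it was listed because of the adults, and the fitted difference was -2.30 (SE 0.29, limma TREAT adjusted p 0.0073).

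The 3 remaining genes overlapped between the ages. LPL (chromosome 2, 49312282-49335995, plus strand), the lipase that frees fatty acids from circulating lipoproteins, had foal means of 8.15, 8.59 and 9.61 and adult means of 7.94, 8.64 and 8.87. Its fitted difference was 0.14 (SE 0.17, limma TREAT adjusted p 1). FABP4 (chromosome 9, 6540069-6544313, plus strand), a fatty acid carrier of adipocytes and also of endothelium and macrophages, had foal means of 8.06, 9.29 and 10.63 and adult means of 8.87, 9.95 and 11.23, and its difference was -0.44 (SE 0.22, limma TREAT adjusted p 0.0712). PPARG (chromosome 16, 6310158-6440488, minus strand), the master transcription factor of adipogenesis, had foal means of 5.20, 5.58 and 6.27 and adult means of 5.45, 6.24 and 6.76, with a difference of -0.26 (SE 0.10, limma TREAT adjusted p 1). All 3 were well above the floor in every foal library, unlike LEP and ADRB3.

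Ages were sequenced mostly in different batches, and only 1 batch held both, with foals 2 and 3 and adults 1 and 5. Within it, both foals lay below both adults for LEP, PLIN1, PLIN4, TRARG1 and ADRB3. The differences there were -3.99 for LEP, -2.46 for PLIN1, -2.60 for PLIN4, -1.69 for TRARG1 and -2.13 for ADRB3. PLIN4 passed the limma TREAT test in this batch alone (adjusted p 0.0358), as did LEP and ADRB3, the genes listed through the adults alone. PLIN1 (limma TREAT adjusted p 0.0823) and TRARG1 (0.218) did not pass it in this batch alone. For CIDEC (-1.36, limma TREAT adjusted p 0.386) and ADIPOQ (-1.43, 0.508) the animals of this batch overlapped. FABP4 was at 0.44 and PPARG at 0.23 there, opposite in sign to the fit of all libraries. Outside this batch, batch and age cannot be told apart.

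Markers of blood-forming and other cells were also summed. All 9 neutrophil markers listed in SCB were higher in foals, as were 9.26% of all SCB genes, and their summed level ran from 389 to 19500 CPM in foal libraries and from 2.5 to 28.5 CPM in adult libraries. Several were near the floor in adults, with horse means of -1.82 for MPO, -1.48 for PRTN3 and -1.09 for AZU1, while CSF3R was at 2.30. Genes near the floor in adults pass the authors' filter where they are high, so they add nothing to this count. Of the 10 erythroid markers 2 passed as higher in foals, and their sum ran from 2.05 to 101000 CPM in foals and from 4.68 to 44.8 CPM in adults, so that 6 of the 9 libraries of foals 1, 2 and 3 lay within or below the adult range. Up to 6 of those 10 were at the value of no reads in a foal library and up to 3 in an adult library. Of the 8 endothelial markers 4 were lower in foals, with sums of 487 to 2600 CPM in foals and 1520 to 2810 CPM in adults. Of the 8 macrophage markers 4 were higher in foals, with sums of 899 to 2090 CPM in foals and 428 to 795 CPM in adults. Of the 8 osteoclast markers 3 were higher in foals, with sums of 1730 to 13000 CPM in foals and 765 to 5120 CPM in adults. Because CPM is relative to the whole library, these levels share a scale with the adipocyte genes, and their part in the age difference was not tested.

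The age difference was next compared between joints. Of the 10 genes, 2 were lower in foals at the fetlock (LEP and PLIN1), 5 at the hock (LEP, PLIN1, PLIN4, TRARG1 and ADRB3) and 7 at the stifle. Without LEP and ADRB3, the genes listed through the adults alone, these were 1, 3 and 5 of 8. The shares of all genes lower in foals were 7.46%, 7.55% and 6.94% in these joints. For fetlock, hock and stifle in turn, PLIN4 had fitted differences of -1.80 (SE 0.54), -2.77 (SE 0.58) and -6.32 (SE 0.62), with limma TREAT adjusted p of 0.254, 0.015 and 8.63e-07. TRARG1 had -1.22 (SE 0.32), -2.58 (SE 0.35) and -4.76 (SE 0.37), and ADIPOQ had -0.48 (SE 0.58), -1.38 (SE 0.63) and -3.89 (SE 0.67). ADRB3 differed little between joints, at -1.91, -2.51 and -2.47.

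**Figure D2:**
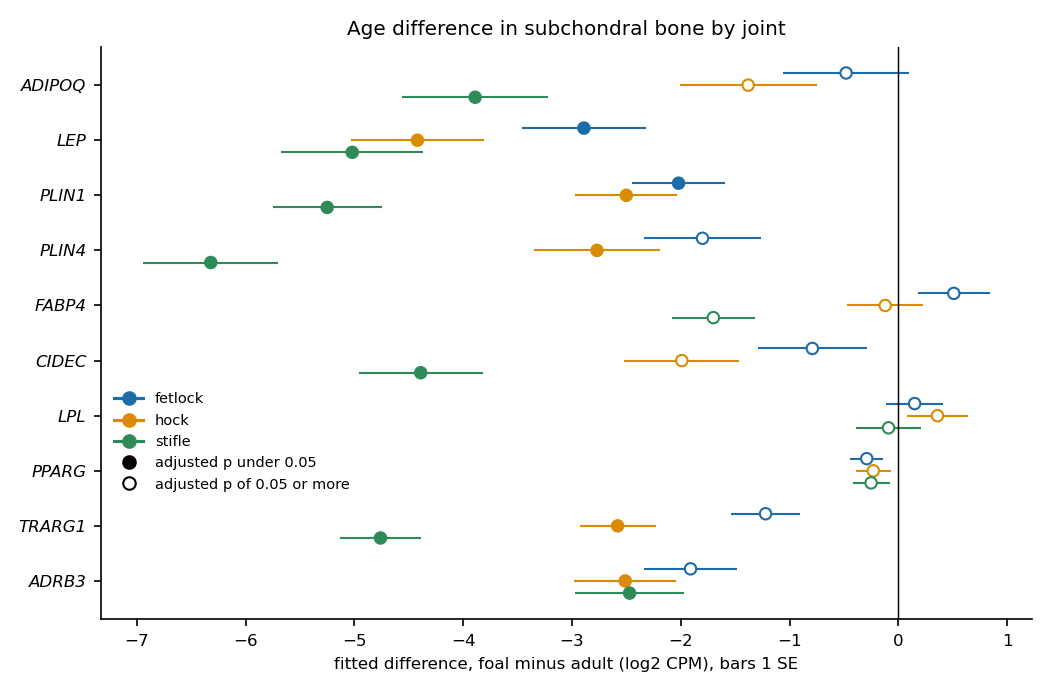
Fitted age difference (foal minus adult, log2 CPM) of the 10 genes in SCB of each joint, with 1 SE; filled points passed the limma TREAT test at an adjusted p under 0.05. For 7 genes, ADIPOQ, LEP, PLIN1, PLIN4, FABP4, CIDEC and TRARG1, the stifle point lies farthest left and the fetlock point farthest right.

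Tested directly, the age difference of TRARG1 was 3.54 (SE 0.48) smaller in size in the fetlock than in the stifle (limma, test of no change, adjusted p 0.006), and that of PLIN4 was 4.53 (SE 0.80) smaller (adjusted p 0.0373). The other 8 genes did not pass, and 0.106% of all genes did. This call depended on the model and on single animals. With no surrogate variables, with the horse as a random block, or without the fetlock library of adult 1, 0 of the 10 genes passed, and 0 passed without foal 4 or any 1 of adults 1, 2, 4, 5 and 6. In adult 1 (fetlock, hock, stifle), ADIPOQ was 8.41, 11.01 and 11.05, PLIN1 was 6.62, 8.58 and 8.49, and LEP was -2.13, 1.04 and 1.29. The fetlock of adult 1 was the lowest of the 10 adult libraries for all 10 genes, and for 12.4% of all SCB genes, a description of a library singled out by these values. In adult 5 the joint order was another one, with ADIPOQ at 11.22, 10.28 and 11.32, PLIN1 at 9.23, 8.85 and 9.83, and LEP at 2.45, 1.75 and 3.02. The 2 adults sampled by joint thus did not share a joint order, and joints of adults were not tested. The summed osteoblast markers of adult 1 were 65600, 31100 and 97500 CPM in these joints, and its neutrophil sums of 8.37, 2.5 and 8.26 CPM were the lowest of the adults in the hock and among the other adults elsewhere; their part was not tested.

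The foal joints were compared within each animal. In all 6 foals, 7 genes (ADIPOQ, LEP, PLIN1, PLIN4, FABP4, CIDEC and TRARG1) were higher in the fetlock than in the stifle. This pattern was shown by 5.71% of all SCB genes. LEP, listed through the adults alone, reached 1 CPM in no foal library and adds nothing to this count. PPARG was lower in the fetlock than in the stifle in all 6 foals. ADIPOQ had fetlock values with a lowest and a median of 8.32 and 9.57, against 7.46 and 8.75 for the hock and 5.73 and 8.07 for the stifle. For PLIN4 the lowest, median and highest fetlock values were 5.69, 7.08 and 7.42, the hock values 2.91, 6.93 and 7.46 and the stifle values 2.09, 4.79 and 6.13. The joints overlapped between animals, while within each foal the fetlock was above the stifle for both genes. The mean difference of fetlock and stifle within a foal was 1.84 ± 1.82 for ADIPOQ, 1.64 ± 1.31 for PLIN1, 2.37 ± 1.44 for PLIN4, 1.44 ± 1.17 for TRARG1, 1.37 ± 1.15 for CIDEC and 1.05 ± 0.79 for FABP4 (SD, n = 6 foals). For LPL it was 0.45 ± 0.81, for ADRB3 0.66 ± 1.28 and for PPARG -0.30 ± 0.13.

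By the fit of all libraries 5 of the 10 genes (ADIPOQ, PLIN1, PLIN4, CIDEC and TRARG1) passed between foal joints, against 0.528% of all genes, and PLIN4 had the smallest adjusted p (fetlock minus stifle 3.52, SE 0.51, limma TREAT adjusted p 0.000282). Each foal gave all 3 joints, and with the foal as a replicate block 0 of 10 passed the limma TREAT test, with fetlock minus stifle at 2.37 (SE 0.62) for PLIN4 and 1.84 (SE 0.51) for ADIPOQ and an adjusted p of 1 for each gene. An exact sign-flip permutation over the 6 foals gave p = 0.0312, the smallest it can give, for each of the 7 genes higher in the fetlock in all 6 foals. PPARG, lower in the fetlock in all 6, had the same sign-flip p of 0.0312 in the opposite direction. After adjustment over all genes the sign-flip p was 0.27. For LEP, near the floor in foals and listed through the adults alone, this value supports nothing. The 1-day-old foal 1 had the steepest fall, with PLIN1 at 8.15, 4.57 and 3.88 (fetlock, hock, stifle). In 4 of the other 5 foals PLIN1 was higher in the hock than in the fetlock.

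**Figure D3:**
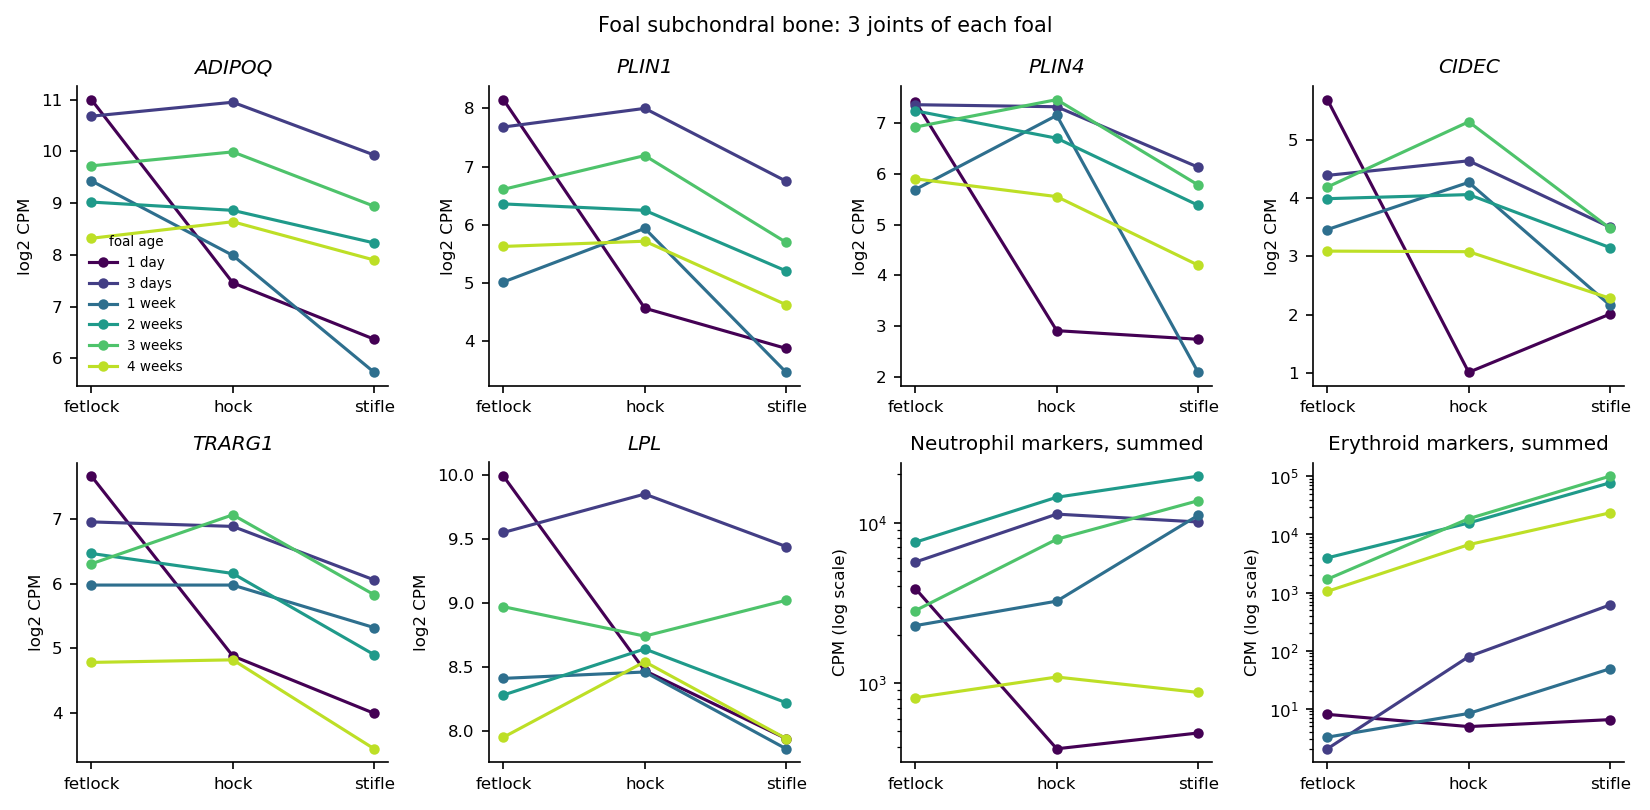
Log2 CPM of 6 marrow adipocyte genes in SCB of the 3 joints of each foal, and the summed CPM (log axis) of 9 neutrophil and 10 erythroid markers; lines join the joints of 1 foal, coloured by its age. ADIPOQ, PLIN1, PLIN4, CIDEC and TRARG1 end lower in the stifle than in the fetlock in all 6 foals, and LPL does so in 5.

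The sum of erythroid markers had foal medians of 529, 3380 and 12100 CPM (fetlock, hock, stifle), and that of neutrophil markers had 3360, 5560 and 10600. ADIPOQ, PLIN1 and PLIN4 had medians in the reverse order, CIDEC had its highest median in the hock (4.16), and PPARG had the order of the marker sums, with medians of 5.39, 5.67 and 5.71. Both sums were higher in the stifle than in the fetlock in 5 of the 6 foals. Foal 1 was the exception, with PLIN1 lower in the stifle and neither sum higher there. Its erythroid sums were 8.02, 4.94 and 6.51 CPM and its neutrophil sums 3880, 389 and 488 CPM. The sum of 9 chondrocyte markers ran the other way, with foal medians of 6680, 3680 and 1400 CPM (fetlock, hock, stifle). It was lower in the stifle than in the fetlock in every foal. The sum of osteoblast markers had foal medians of 67300, 72800 and 35200 CPM. The part of these cells in the joint difference was not tested. The level did not follow foal age in a simple order, as ADIPOQ means were 8.27, 10.52, 7.71, 8.70, 9.55 and 8.29 from the youngest to the oldest foal.

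Other genes of fat metabolism were counted in lists by function, to be read against the 10.6% of all SCB genes that were lower in foals and the 9.26% that were higher. Of 8 lipolysis genes, 6 were lower in foals in SCB and none was higher, with a median difference of -1.98. The beta 1 adrenergic receptor gene ADRB1 was at -3.24 (SE 0.28), the hormone-sensitive lipase LIPE at -2.57 (SE 0.29), the lipase inhibitor G0S2 at -2.53 (SE 0.23) and the adipose triglyceride lipase PNPLA2 at -0.76 (SE 0.11). Of 18 genes of lipid uptake and storage, 9 were lower and none higher, with a median of -0.86. The droplet protein CIDEA was at -4.52 (SE 0.39), the glycerol channel AQP7 at -3.12 (SE 0.21) and caveolin CAV1, which endothelium also expresses, at -2.06 (SE 0.25). The fatty acid receptor CD36 did not pass (-0.83, SE 0.18).

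Of 9 lipid synthesis genes 4 were lower in foals, with a median of -0.24. They included THRSP (-4.14, SE 0.52), the desaturase SCD (-1.94, SE 0.39) and the transcription factor MLXIPL (-1.61, SE 0.20). Of 9 genes of the insulin response 3 were lower, although the list's median was 0.22. They included PCK1 (-1.59, SE 0.31) and the glucose transporter SLC2A4 (-1.36, SE 0.20). PCK1 was near the floor in foals, with horse means of -2.08 ± 0.59 in foals and -0.18 ± 1.76 in adults (SD). The size of its difference therefore depends on the prior count. Genes near the floor in foals pass the authors' filter where they are high, so PCK1 adds nothing to the count of this list. Of 12 adipogenic transcription factors 3 passed, close to the share of all SCB genes. EBF2 (-1.84, SE 0.25) and KLF15 (-1.41, SE 0.14) were lower and PPARGC1B (0.83, SE 0.16) was higher. CEBPA did not pass (-0.97, SE 0.22).

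Among 8 adipokines, which include LEP and ADIPOQ, NRG4 (-2.15, SE 0.20) and the adipsin gene CFD (-1.89, SE 0.23) were also lower in foals. RETN, which encodes resistin and is expressed by myeloid cells in many species, was higher in foals by 8.90 (SE 0.40), with horse means of 7.82 ± 1.76 in foals and -1.66 ± 1.25 in adults (SD, n = 6). It was near the floor in adults, so the size of this difference depends on the prior count. Among 4 adipokine receptors CDH13 was lower in foals (-3.79, SE 0.29). LEPR (-1.23, SE 0.26) and ADIPOR2 (-0.40, SE 0.11) did not pass. ADIPOR1 was at 0.81 (SE 0.07), opposite in sign to the other receptors, and did not pass either. Of 5 listed brown fat genes 3 were lower in foals. UCP1 and COX8B of that list had no row in either tissue, and nothing about brown fat is read from their absence.

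Across the 28 SCB libraries, after removal of each age group's mean, the members varied together to different degrees. Pearson's r of a gene with the mean of the other 9 was highest for CIDEC (0.925), TRARG1 (0.908) and PLIN1 (0.904), lower for PPARG (0.454), and lowest for ADRB3 (0.258). Within the 10 adult libraries ADRB3 had r of 0.746 and LEP 0.889, and within the 18 foal libraries, where both were near the floor, 0.064 and 0.382. The genes outside the list most like the members' mean were PRRT4 (r = 0.895), SNCG (0.890), BCHE (0.870), PPP1R1A (0.866), AIFM2 (0.860), GYS2 (0.854), GPD1 (0.849) and ADORA1 (0.848). All 8 were lower in foals, against 10.6% of all SCB genes, from -1.14 for GYS2 to -3.23 for PPP1R1A. GYS2 was low, with a mean level of 0.37 log2 CPM. These values are descriptions, since joints of 1 horse and the scaling of each library are shared by all genes.

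In AC, FABP4 alone of the 8 genes reached 1 CPM in every library, and PLIN4 and TRARG1 reached it in at most 2. Of the 8 genes, 2 passed between the ages, both higher in foals, PPARG and ADRB3. ADRB3 reached 1 CPM in foals alone, so the filter kept it only where it is high and the counts in AC that hold it support nothing about it. Of all AC genes 6.79% passed and 4.00% passed as higher in foals. With 1 mean per horse, PLIN1, LPL and ADRB3 passed the exact permutation test, against 22.8% of all genes. The ages did not overlap for PLIN1 and ADRB3, against 10.7% of all genes. Chondrocyte markers were higher in foals for 7 of 10 and endothelial markers for 4 of 8, with endothelial sums of 62.4 to 505 CPM in foals and 9.40 to 694 CPM in adults, and their part was not tested. The median difference over the 8 genes was 0.78, and over all AC genes 0.028. The 8 ran from -1.16 for PLIN4 to 3.32 for ADRB3, and with ADRB3 in it this median supports nothing about the members.

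ADRB3 had horse means of -0.22, 0.25 and 1.42 in foals and -3.17, -2.53 and -1.39 in adults (lowest, median and highest). It reached 1 CPM in 10 of 18 foal and 0 of 8 adult libraries. No test was made between the tissues, which were scaled separately. The AC difference was 3.32 (SE 0.43, limma TREAT adjusted p 0.00289) and passed in hock and stifle, but with the horse as a random block no member passed in AC. PLIN1 was lower in foals, at -1.58, -1.21 and -0.74 against -0.53, -0.13 and 1.16 in adults (exact permutation, adjusted p 0.0202), and did not pass the fit of all libraries (-1.13, SE 0.32, limma TREAT adjusted p 0.51). It reached 1 CPM in 1 of 18 foal and 2 of 8 adult libraries, so the size of this difference depends on the prior count.

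LPL was higher in foals, at 1.20, 2.39 and 2.82 against -1.09, -0.39 and 2.19 (exact permutation, adjusted p 0.0354), with adult 3 the only adult among the foals. Leaving out a horse gave adjusted p of 0.0181 to 0.0652, over 0.05 without adult 6 or any 1 of foals 1 to 5. PPARG passed in the stifle alone (3.66, SE 0.82, limma TREAT adjusted p 0.047), and its horse means overlapped, at -1.64 to 2.75 in foals and -2.02 to 1.07 in adults. It passed in 5 of 23 alternatives, with limma adjusted p up to 0.85 in the others. FABP4 reached 1 CPM in all 26 libraries, and its horse means of 2.07 to 7.11 in foals and 2.85 to 4.38 in adults overlapped (1.62, SE 0.50, limma TREAT adjusted p 0.497). Between foal joints, 0 of the 8 genes passed in AC in the fit of all libraries and in the fit with the foal as a block, against 0.614% of all genes.

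**Figure D4:**
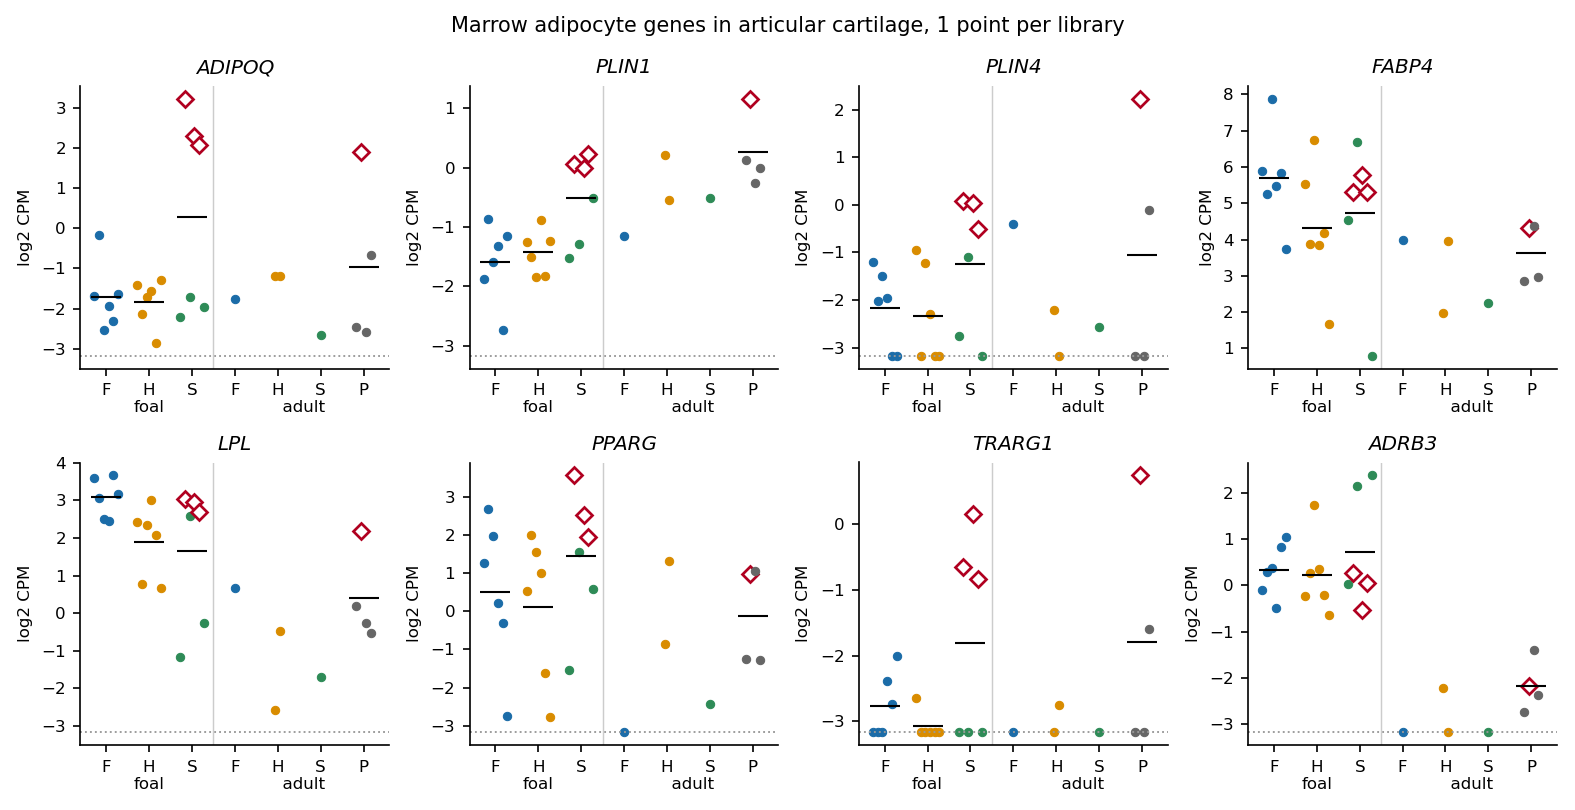
Log2 CPM of the 8 listed genes in each AC library, by joint (F fetlock, H hock, S stifle, P pooled), with foals on the left and adults on the right of each panel. Open diamonds are the stifle libraries of foals 2, 4 and 5 and the pooled library of adult 3, which for ADIPOQ, PLIN1, PLIN4 and TRARG1 stand above the other libraries of their own age.

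The pooled AC library of adult 3, assigned to the fetlock, stood apart from the other 7 adult libraries. It was known beforehand as outlying, and its values for these genes are a description. It was the highest adult library for 5 of the 8 genes and for 20.7% of all AC genes, and adult 4 was the highest for 20.6%. ADIPOQ, PLIN4 and TRARG1 reached 1 CPM in no AC library but this one and the stifle libraries of foals 2, 4 and 5. The authors' filter thus kept these genes through libraries where they are high, and they add nothing to this count. ADIPOQ was at 1.89, with the other adults from -2.65 to -0.67. PLIN4 was at 2.23 against -3.17 to -0.11, TRARG1 at 0.75 against -3.17 to -1.60, LPL at 2.19 against -2.58 to 0.67, and PLIN1 at 1.16 against -1.16 to 0.22. FABP4 (4.33), PPARG (0.99) and ADRB3 (-2.17) lay within the range of the other adults. For PLIN1, PLIN4 and TRARG1 it also exceeded all 18 foal libraries. In SCB the same horse lay within the range of the other adults for ADIPOQ (10.41) and PLIN4 (9.47), while its ADRB3 (1.31) was the highest of the adults. Of all AC genes 1.47% were at least 3 log2 units above the next adult in this library, and at most 0.073% in any other adult library.

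**Figure D5:**
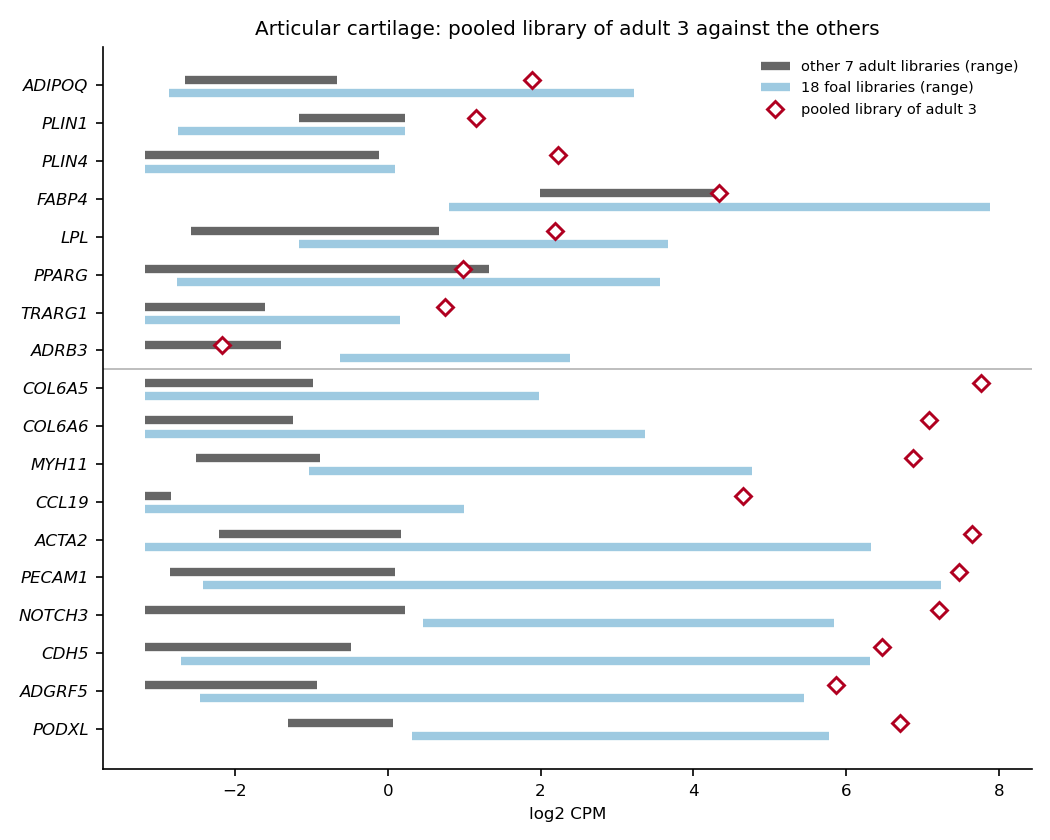
Log2 CPM in the pooled AC library of adult 3 (diamonds) beside the range of the other 7 adult libraries (grey) and of the 18 foal libraries (blue), for the 8 listed marrow adipocyte genes above the line and the 10 other genes with the largest excess in this library below it. The diamonds of those 10 genes lie at least 6.63 log2 units above the highest of the other adults.

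The 10 other genes with the largest excess in this library were 6.63 to 8.73 log2 units above the next adult. They were the collagens COL6A5 (7.76) and COL6A6 (7.09), the smooth muscle genes MYH11 (6.87) and ACTA2 (7.65), the chemokine CCL19 (4.65), the endothelial genes PECAM1 (7.48) and CDH5 (6.47), the receptor NOTCH3 of smooth muscle and pericytes (7.21), ADGRF5 (5.87) and PODXL (6.70). The members' excess of at most 2.56, for ADIPOQ, was smaller. The 8 endothelial markers summed to 694 CPM in this library and to 9.40 to 104 CPM in the other adults. The 8 macrophage markers summed to 418 CPM against 6.84 to 196 CPM, and the 8 osteoblast markers to 3110 CPM against 81.2 to 628 CPM. The 10 chondrocyte markers, at 32300 CPM, were within the range of the others, 24200 to 87100 CPM, as were the 3 erythroid markers (2.82 CPM against 1.25 to 8.48). Neutrophil markers summed to 0.373 CPM, with 2 of 6 at no reads. The part of these cell types in the members' levels was not tested.

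Without adult 3, the horse means of foals and adults differed by 0.73 for ADIPOQ, 0.22 for PLIN4 and 0.26 for TRARG1, where they had differed by 0.11, -0.51 and -0.33 with it, and none of these passed the exact permutation test. For LPL the difference was 2.74 without adult 3 (adjusted p 0.0181), and the ages then did not overlap.

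In the foals, 3 AC libraries stood apart in the same genes. The stifle libraries of foals 2, 4 and 5 had ADIPOQ at 3.22, 2.30 and 2.06, with the other 15 foal libraries from -2.86 to -0.18. TRARG1 was at -0.65, 0.16 and -0.83 against -3.17 to -2.0, PLIN4 at 0.09, 0.04 and -0.51 against -3.17 to -0.94, and PLIN1 at 0.06, -0.01 and 0.23 against -2.74 to -0.52. These 3 libraries were singled out after the values were seen, by exceeding the other foal libraries for these 4 of the 8 genes, so this too is a description. Of all AC genes 1.33% had these 3 libraries above the other 15. ADIPOQ, PLIN4 and TRARG1 reached 1 CPM in no AC library but these 3 and the pooled library of adult 3. The authors' filter thus kept these genes through libraries where they are high, and they add nothing to this count. Among the foals, PLIN1 reached 1 CPM only in the stifle library of foal 5. FABP4, LPL, PPARG and ADRB3 were not above the rest in all 3. The 8 osteoblast markers summed to 3350 to 4010 CPM in the 3 libraries, with a median of 511 CPM (97.2 to 17200) in the other foal libraries. The 8 endothelial markers summed to 363 to 439 CPM against a median of 200 CPM (62.4 to 505). The 8 macrophage markers summed to 123 to 163 CPM against a median of 47.5 CPM (11.1 to 223). Their part was not tested. Of the other AC genes of fat metabolism that were listed, the lipase MGLL was higher in foals (2.24, SE 0.35) and CDH13 lower (-3.22, SE 0.28), and no gene of the lists of uptake and storage, synthesis, insulin response, transcription factors or other adipokines passed.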

How the data were processed

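RNA was sequenced on Illumina instruments, and the deposited tables hold 26 columns of AC and 28 of SCB, with 2 stifle libraries each of foals 2 and 3 added together in AC by the authors. By the submitters' processing notes and the study's methods, reads were trimmed (Trimmomatic 0.38) and quantified with Salmon 0.11.3 on the EquCab3.0 transcriptome, and genes with 1 CPM in at least 2 samples were kept. The values the authors deposited are log2 CPM (edgeR, trimmed mean of M values, prior count of 3), scaled within each tissue; per library depth was not used here. The members and lists were chosen with earlier results of these data known.

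From these values a limma-trend model (limma 3.58.1, statmod 1.5.0, R 4.3.3) was built on the 6 age by joint classes plus 5 surrogate variables from an iteratively reweighted routine coded here (5 iterations), with TREAT at a fold change of 1.5, adjusted by Benjamini-Hochberg over 9 contrasts. Difference between joints in the age effect was tested against no change. The fit was tested on simulated data, whose effect size was raised after a failed attempt. Horse means were compared by exact permutation. Two-sided tests were used throughout. Summed levels are CPM, from 2 raised to log2 CPM less the value of no reads.

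Same-numbered libraries of foals come from 1 animal, and their deviations from the joint means correlated at 0.565 in AC and 0.564 in SCB (18 pairs each), against -0.104 and -0.111 between foals. Genes named are the members and the called genes of each list with the largest differences. CEBPA, LIPE, PNPLA2, CD36, LEPR, ADIPOR1 and ADIPOR2 are named as well. So are up to 2 marker genes per list, the 8 genes most like the members and the 10 with the largest excess in the AC library of adult 3. Among the genes of the lists, 1 that the rule selects is left out of the text and not reported here. Marker sums use gene lists of the cell types that bone and cartilage samples can hold. Alternatives left out or changed surrogate variables, batch, horses, scaling, the test and low genes.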

Additional observations from a re-analysis of the deposited data

Results flagged for a closer look

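Of 90 groups of 6 horses or 6 foal libraries examined for a single value far from the rest, 4 held one; chance flags about 1 in 20 at the critical value used, so their number is no more than chance gives. In SCB, the LEP mean of adult 1 was 0.07, with the other 5 adults from 1.60 to 2.41, and its fetlock library was at -2.13. The LPL value of foal 2 in hock SCB was 9.85, with the other foals from 8.46 to 8.74. In AC, FABP4 in the stifle of foal 6 was 0.80, with the others from 4.53 to 6.70. TRARG1 in the hock of foal 1 was -2.65, where the other 5 foals were all at the value of no reads.

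The age difference in SCB differed between fetlock and stifle for TRARG1 (limma, test of no change, adjusted p 0.006) and for PLIN4 (adjusted p 0.0373). Both calls were absent without the fetlock library of adult 1.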

How the results depend on the processing

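The 7 members lower in foals in SCB numbered 7 to 8 when each horse was left out in turn, 7 with the horse as a random replicate block, 4 with the sequencing batch as a covariate and 3 in the batch with both ages alone. The 2 members that passed in AC became 1 with no, 4 or 6 surrogate variables, with the batch covariate, with 1 contrast of the mean over joints, with quantile normalization and without the stifle libraries of foals 2, 4 and 5, 0 with the horse block, with log2(CPM + 1) and after removal of genes with means under 1, and 4 with a test of no change; leaving out horses gave 1 to 2, with 1 without foals 1, 2, 4 or 5 or adults 1 or 4. The 5 members that passed between foal joints in SCB became 0 with no surrogate variables or with the foal as a replicate block, 1 with 4 surrogate variables or quantile normalization and 3 without the fetlock library of adult 1, and leaving out horses gave 1 to 5, with 1 without adult 2, 4 or 6, 2 without foal 1 or 4 and 3 without adult 5. The 2 members whose age difference differed between joints became 0 with no or 4 surrogate variables, the horse block, the filter on the mean, quantile normalization or without the fetlock library of adult 1, and 1 with log2(CPM + 1), and leaving out horses gave 0 to 2, with 0 without foal 4 or adults 1, 2, 4, 5 or 6 and 1 without foal 5 or 6 or adult 3. By exact permutation over horses, 7 members in SCB became 6 to 8, with ADIPOQ over the threshold in most, and 3 in AC became 2 to 4 when a horse was left out. With the pooled adults left out 0 passed in either tissue, where 6 against 2 horses allow few splits.

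Directions turned for members that had passed neither way. The fitted ADIPOQ difference in AC was -0.07, and 0.37, 0.15, 1.00, 0.11, 0.27, 1.02, 0.78 and 0.20 with no or 6 surrogate variables, the batch covariate, 1 value per horse, the horse block, the batch with both ages, the adults sampled by joint and log2(CPM + 1); leaving out horses gave -0.70 to 1.48. PLIN4 in AC turned to 0.61 and 0.40 with the batch covariate and in the batch with both ages (-1.52 to 0.46 without a horse), and TRARG1 in AC to 0.37 and 0.35, and to 0.55 with the adults sampled by joint (-1.12 to 0.63). In SCB, FABP4 turned to 0.44 and PPARG to 0.23 in each of the batch fits, and LPL ran from -0.18 to 0.83 without a horse. Of the horse means, ADIPOQ in AC turned to -0.31 with medians, -0.13 without adults sampled by joint and -0.61 without the stifle libraries (-0.16 to 0.73 without a horse), PLIN4 in AC to 0.18 and TRARG1 to 0.51 without the pooled adults (-0.86 to 0.22 and -0.52 to 0.26 without a horse), and LPL in SCB ran from -0.05 to 0.24. In AC the fits without adult 2 or adult 5 were not run, since 1 adult stifle library would be left. The alternatives without single libraries were chosen after the values had been seen. The cause of these changes was not tested.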
